A study of Mus musculus with 92 samples.

Results

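The genes described here are the nuclear genes of oxidative phosphorylation in mouse intestine, taken by symbol: every protein-coding gene whose name begins with Nduf, Uqcr, Cox4 to Cox8 or Atp5, together with Sdha, Sdhb, Sdhc and Sdhd. The rule found 94 of the 54532 genes in the count tables, with 93 different symbols, since Atp5o is listed under 2 gene identifiers. They comprise 7 core subunits, 29 accessory subunits and 8 assembly factors of complex I, 4 subunits of complex II, 8 of complex III, 11 of complex IV with 9 tissue-restricted isoforms and related paralogs, 17 subunits of the ATP synthase, and Atp5s, a small protein related to the synthase. Of these 94 genes, 87 had enough reads to be tested in every comparison, 2 in some (Cox6a2 and Ndufa4l2) and 5 in none (Cox4i2, Cox7b2, Cox8b, Cox8c and the second Atp5o entry). The rule uses only names and gene type, although it was set with earlier results of these data known.

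Oxidative phosphorylation takes place at the inner membrane of mitochondria. Complex I (NADH dehydrogenase) and complex II (succinate dehydrogenase, which is also an enzyme of the citric acid cycle) pass electrons to ubiquinone, complex III passes them to cytochrome c and complex IV (cytochrome c oxidase) to oxygen, and the ATP synthase uses the resulting proton gradient to make ATP. Most subunits are encoded in the nucleus and a few in the mitochondrial genome, so the complexes are built from transcripts of both. In the small intestine, stem and dividing cells lie in the crypts, and the absorptive enterocytes of the villi are rich in mitochondria.

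The study deleted Eif4g2, which encodes a translation initiation factor related to eIF4G1, with a Cre recombinase fused to a modified oestrogen receptor (CreER) that tamoxifen or its active form 4-hydroxytamoxifen (4-OHT) switches on. Mice with Rosa26(CreER), active in all tissues, were Eif4g2(flox/flox) or Eif4g2(flox/+), received tamoxifen and were sampled at day 9. They gave 4 flox/flox and 5 flox/+ crypt libraries, and 5 and 5 villus libraries. Mice with Vil1(CreER), active in intestinal epithelium, were of the same 2 genotypes, received 100 mg/kg tamoxifen and were sampled at 3 months. They gave 3 flox/flox and 4 flox/+ crypt libraries, and 6 and 4 villus libraries. Small intestinal organoids, epithelial cultures grown from crypts in medium with EGF, noggin and R-spondin (ENR), all carried Rosa26(CreER) and were collected at day 6. In the first organoid set, 3 flox/flox lines were each given DMSO or 0.5 µM 4-OHT. In the second set, 4 flox/flox, 4 flox/+ and 4 Eif4g2(+/+) CreER-only lines were all given 4-OHT. Fetal intestinal spheroids, cultures from fetal epithelium with Rosa26(CreER), came from 6 flox/flox and 5 flox/+ lines, each given DMSO or 4-OHT and collected at day 6. A further experiment gave 4 organoid lines DMSO or A-485 at 3, 5 and 10 µM, with collection at day 4. A-485 blocks the catalytic site of p300 and CBP, which acetylate histones. Of these lines 1 was Eif4g2(+/+) and 3 were flox/flox, all with Rosa26(CreER) and without 4-OHT. Every control of a deletion in the mice and in the second organoid set therefore also carried CreER and received the inducer, and the flox/+ controls had lost 1 copy. The labels name the mouse or line of each library. Whether the lines of the second organoid set came from separate mice is not stated, and several spheroid lines share the number that begins their names.

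Promoter sequence is shown for 4 genes that the results below turn on and that RefSeq's table for GRCm38.p6 holds without another gene's body in the stretch, to let a reader see what lies just upstream of genes that moved in different directions. Each line gives the 150 bases before the transcription start, 5′ to 3′ on the gene's own strand, and capitals mark matches to 1 of 4 motifs that were searched on both strands. Ndufaf4, a complex I assembly factor, starts on the plus strand (chr4:24897933-24898082), Uqcr10, a small complex III subunit, on the minus strand (chr11:4704345-4704494), Atp5g3, a subunit of the membrane ring of the ATP synthase, on the minus strand (chr2:73911327-73911476), and Cox7a2l, a factor that joins complexes III and IV, on the minus strand (chr17:83514334-83514483).
Ndufaf4: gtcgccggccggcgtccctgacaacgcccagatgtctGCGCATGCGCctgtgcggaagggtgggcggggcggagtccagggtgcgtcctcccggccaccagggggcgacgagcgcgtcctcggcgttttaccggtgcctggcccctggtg
Uqcr10: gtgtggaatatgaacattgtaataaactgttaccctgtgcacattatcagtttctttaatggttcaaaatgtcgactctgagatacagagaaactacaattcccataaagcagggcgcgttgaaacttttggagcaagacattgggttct
Atp5g3: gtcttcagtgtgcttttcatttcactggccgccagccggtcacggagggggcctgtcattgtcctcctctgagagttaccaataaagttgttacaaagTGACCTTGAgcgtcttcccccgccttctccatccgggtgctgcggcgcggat
Cox7a2l: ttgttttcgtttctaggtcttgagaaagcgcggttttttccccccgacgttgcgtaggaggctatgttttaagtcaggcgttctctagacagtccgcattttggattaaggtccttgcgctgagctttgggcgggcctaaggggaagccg
The capitals in Ndufaf4 mark 2 overlapping matches to the NRF1 motif and those in Atp5g3 a match to the ERR motif on the other strand; no searched motif lay in the stretches of Uqcr10 and Cox7a2l.

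RefSeq's table held windows of 300 bases (250 before the start and 50 after it) for 74 of the 93 symbols, 79 windows in all. The motif of NRF1 (GCGCANGCG), a factor known for its sites in promoters of respiratory chain genes, lay in 29.1% of the 79 windows and in 6.25% of all 32851 windows. That of YY1 (AAGATGGC) lay in 12.7% against 2.75%, that of GABP (CCGGAAGT) in 6.33% against 3.89%, and that of the oestrogen-related receptors (ERR, TCAAGGTCA) in 2.53% against 0.423%. At least 1 of the 4 was present in 44.3% of the windows, which belong to 34 symbols, against 12.2% of all windows. These are matches of letters and were not compared with binding.

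The 94 genes together took 0.68 to 2.01% of the counts of a library. CPM are a library's counts scaled to a common total over the genes that passed a low-count filter, and adjusted between libraries by a TMM factor. Levels between genes are compared as CPM divided by the deposited gene length in kb and averaged over the 21 group means. Whether these lengths are those of the transcripts present was not tested. On that scale the highest were Atp5a1 at 513.1 CPM per kb, Cox6a1 at 485.9, Atp5b at 433.6, Cox8a at 407.7 and Cox4i1 at 285.6, namely the 2 catalytic-head subunits of the ATP synthase and 3 subunits of complex IV. The lowest, among genes whose mean log2 CPM was 1 or more, were Ndufb2 at 0.821 CPM per kb, Ndufaf2 at 3.01, Cox6b2 at 4.12 and Atp5s at 4.33. Cox7a1, the isoform of a complex IV subunit known from heart and skeletal muscle, stood at 17.8 CPM per kb, below the broadly expressed Cox7a2 at 106.2. The tables do not say whether counting used strand, so the values of genes that overlap a gene on the other strand are uncertain. Such a neighbour with a mean of 5 CPM or more was found for 18 genes of the set that had counts. It was the more abundant gene for 5 of them: Ndufb2 (with Braf), Ndufaf2 (with Smim15), Ndufs1 (with Eef1b2), Ndufa4l2 (with Shmt2) and Ndufaf3, whose neighbour Impdh2 had a mean of 193 CPM against 15.4. For Cox6c (with Vps13b), Atp5j (with Gabpa), Ndufb11 (with Rbm10) and Ndufs6 (with Mrpl36) the neighbour was below the member but of a like level.

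Libraries held 8652040 to 16436145 counts in the A-485 experiment and 14790237 to 37611126 in the others. Eif4g2 was lower in every flox/flox group given the inducer, by 0.99 (Vil1 crypt) to 2.82 (spheroids) on the log2 scale, and was not called under A-485. In each of the 4 sets with crypt or organoid controls, markers of other epithelial cells moved with the deletion. The summed level of 6 Paneth cell genes was 16358 to 22778 CPM in Rosa26 flox/+ crypts and 2495.8 to 10915 in flox/flox, and 3282 to 7314.7 and 358.03 to 941.94 in Vil1 crypts. In organoids it was 1962.3 to 2324.5 with DMSO and 224.86 to 476.7 with 4-OHT in the first organoid set, and 6324.1 to 7014.7 in flox/+ and 1574.2 to 2052.4 in flox/flox of the second. Spheroid lines 1 and 3 of flox/flox and 4 and 5 of flox/+ held high levels of Paneth genes, against their label of fetal epithelium, so spheroid results are given with and without these 4 lines. In the Rosa26 mice the Y-linked gene Ddx3y was present in all flox/+ libraries and in few of the flox/flox ones, so sex partly overlaps genotype there. In bulk RNA a smaller share of a cell type and less RNA of a gene per cell cannot be told apart, and this holds for every difference below.

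**Figure D1:**
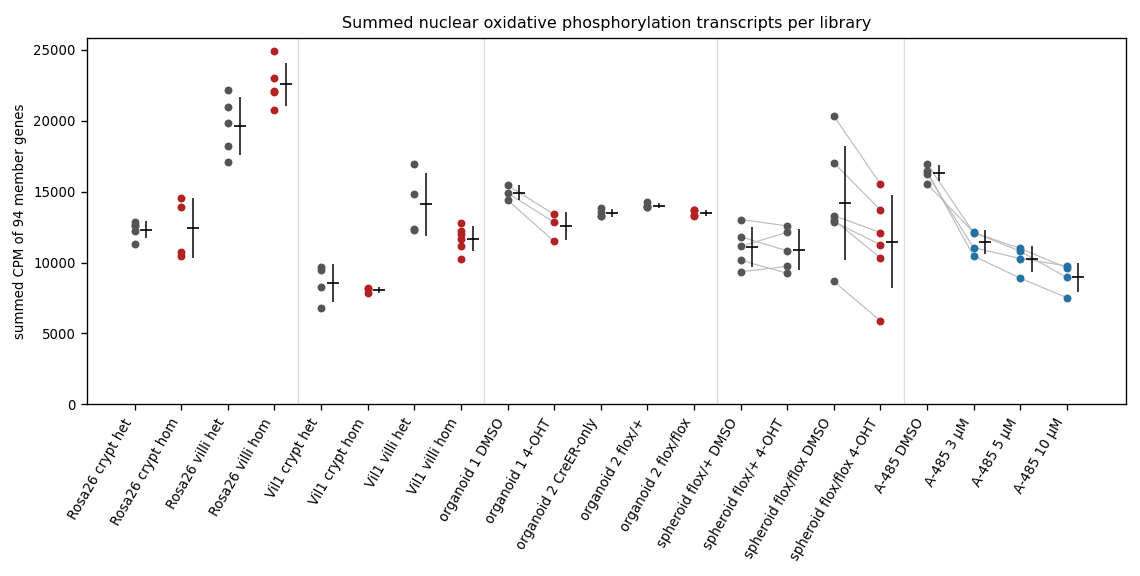
Summed CPM of the 94 genes in each library (points; vertical axis, linear), by group, with the group mean and SD in black. Red marks groups with both Eif4g2 copies deleted, blue marks A-485 and grey the others; grey lines join libraries of 1 line, and het and hom stand for flox/+ and flox/flox. The A-485 groups step down from 15550 to 16976 CPM with DMSO to 7522.1 to 9758.7 CPM at 10 µM, and villi lie above crypts in both mouse sets.

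Within the tissue, crypts and villi differed in more of these genes than the genotypes did. The same held for all genes tested, so that difference in counts is not particular to the set. In flox/+ mice, whose sum over the 94 genes had a median of 12545 CPM in Rosa26 crypts and 19846 CPM in the villi of the same mice, most genes of oxidative phosphorylation were higher in villi. The tests were edgeR's quasi-likelihood F-test with Benjamini-Hochberg adjustment over all genes tested and a threshold of 0.05, with the mouse as a block here. In Rosa26 flox/+ mice 68 of 88 tested genes were higher in villi (background 35.7% of all genes) and 8 lower (background 40.2%), with a median log2 fold change of 0.60 against -0.10 over all genes. In Vil1 flox/+ mice 66 of 88 were higher (background 32.0%) and 9 lower (background 34.5%), with a median of 0.81 against -0.08. All 8 enterocyte markers of the list were higher in villi in both sets as well. Their sum was 2340.6 to 4643.2 CPM in Rosa26 flox/+ crypts and 55226 to 76758 CPM in villi. All 7 proliferation markers were lower.

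By role, the structural subunits and the assembly factors lay on opposite sides. Higher in villi of the Rosa26 mice were 25 of 29 accessory subunits of complex I, 4 of 7 core subunits, all 4 subunits of complex II, 7 of 8 of complex III, 10 of 11 of complex IV and 14 of 16 of the ATP synthase, with medians of 0.43 (core of complex I) to 1.09 (complex II). The complex I assembly factors, which are not part of the finished enzyme, were the exception, with 6 of 8 lower and 2 higher and a median of -0.97. The Vil1 mice gave 25 of 29 accessory subunits, 3 of 7 core subunits, 4 of 4 for complex II, 6 of 8 for complex III, 11 of 11 for complex IV and 13 of 16 for the ATP synthase higher, and 6 of 8 assembly factors lower with a median of -0.79.

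Ndufa1, an accessory subunit needed to build the membrane arm of complex I, was at 24.5, 27.8, 24.8, 25.5 and 23.5 CPM in the 5 Rosa26 flox/+ crypts and at 71.9, 83.5, 65.2, 80.1 and 77.9 CPM in their villi. This is a rise of 1.59 ± 0.08 (log2 fold change ± SE; edgeR adjusted p = 5.98e-07). In Vil1 flox/+ mice it was at 8.65, 8.29, 12.3 and 11.7 CPM in crypts and 62.7, 48.7, 50.7 and 60.7 CPM in villi, and rose by 2.40 ± 0.15 (edgeR adjusted p = 5.29e-06). Crypt and villus values did not overlap in either set. Sdhb, the iron-sulfur subunit of complex II, was at 174, 163, 152, 183 and 178 CPM in Rosa26 crypts and 447, 408, 327, 438 and 385 CPM in villi. It rose by 1.24 ± 0.08 there (edgeR adjusted p = 3.13e-06) and by 1.14 ± 0.12 in the Vil1 mice (edgeR adjusted p = 6.98e-05). For Cox6a1, the liver-type isoform of a complex IV subunit, the Rosa26 crypts held 329, 338, 302, 329 and 322 CPM and the villi 833, 945, 759, 1232 and 877 CPM. The rise was 1.51 ± 0.11 (edgeR adjusted p = 5.54e-06). Here too every villus library lay above every crypt library.

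Cox7a1 had among the largest rises, from 7.3, 4.52, 4.71, 9.42 and 7.81 CPM in Rosa26 flox/+ crypts to 62.3, 40.2, 37.5, 40.2 and 40 CPM in villi (2.74 ± 0.18, edgeR adjusted p = 2.96e-06). In the Vil1 mice it went from 3.61, 3.13, 7.37 and 9.28 to 56.4, 32.4, 38.7 and 42.3 CPM (2.91 ± 0.32, edgeR adjusted p = 0.000188). Its paralog Cox7a2l went the other way, by -0.65 and -0.52. Of the ATP synthase genes, Atp5g2, which encodes the same ring protein as Atp5g3 with another import signal, was lower in villi. It stood at 123, 149.8, 134, 140.1 and 136 CPM in Rosa26 crypts and at 65, 77.1, 83.9, 86.3 and 74.7 CPM in villi. The values were -0.82 (edgeR adjusted p = 2.35e-05) and -0.97 in the Vil1 mice (edgeR adjusted p = 0.00166). The assembly factor Ndufaf6, named here after its values were seen, fell from 7.27, 7.75, 8.13, 9.73 and 8.69 CPM in Rosa26 crypts to 2.31, 1.47, 2.28, 1.56 and 1.17 CPM in villi. Its change was -2.26 ± 0.24 (edgeR adjusted p = 3.99e-05). Ndufaf4 fell by 1.01 and 1.28 in the 2 sets (edgeR adjusted p = 0.00147 and 9.47e-05).

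Among the main subunits of each complex, fixed by name, the step was uneven within complex I. Of its core, Ndufv1, which carries the NADH-binding site, was higher in villi by 0.56 and 0.47 in the Rosa26 and Vil1 mice, while Ndufs1 (0.19 and 0.10) did not pass the test. Uqcrc1 and Uqcrfs1, a core protein and the Rieske iron-sulfur protein of complex III, rose by 1.02 and 1.28 in the Rosa26 mice and by 0.39 and 0.85 in the Vil1 mice. Cox4i1 and Cox5a, subunits of complex IV, rose by 1.01 and 0.98, and by 1.37 and 0.90. The catalytic-head subunits Atp5a1 and Atp5b rose by 0.43 and 0.42 in the Rosa26 mice. In the Vil1 mice Atp5b rose by 0.43, a call lost in 7 of the 8 fits that left out 1 library, and Atp5a1 had a value of 0.33 that did not pass.

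**Figure D2:**
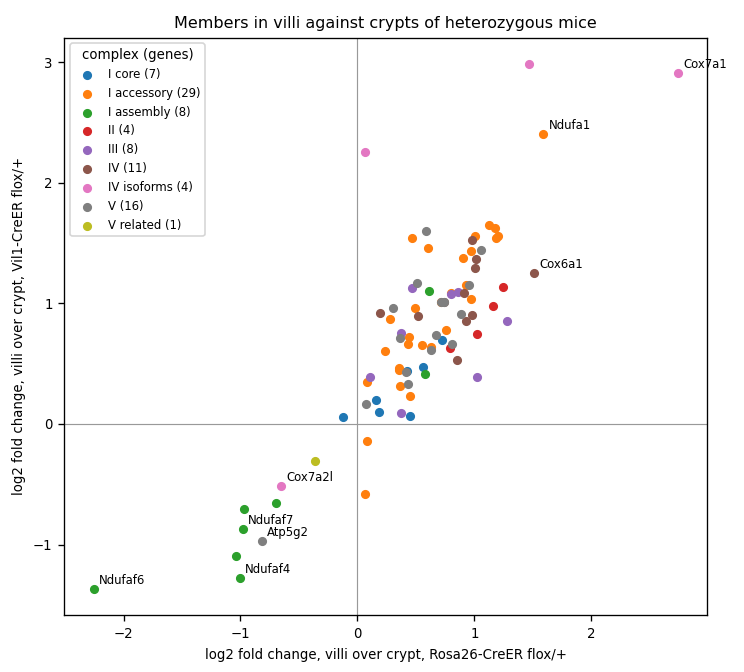
Log2 fold change of villi against crypts in flox/+ mice for the tested genes, in the Rosa26 mice (horizontal axis) and the Vil1 mice (vertical axis), 1 point a gene, with colours for the role of the gene. Most subunits lie above 0 on both axes, Cox7a1 lies at 2.74 and 2.91, and the complex I assembly factors lie mostly below 0.

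Loss of both Eif4g2 copies in Rosa26 mice changed few of these genes in crypts at day 9. Of 88 tested genes 3 rose (background 8.63%) and 1 fell (background 11.6%), with a median of 0.02 against 0.04 over all genes; 14 had an unadjusted p under 0.05. Ndufaf4 rose from 18.7, 18.4, 17.5, 17.7 and 21.6 CPM in flox/+ to 22.7, 26.6, 19.2 and 35.9 CPM in flox/flox (0.52 ± 0.15, edgeR adjusted p = 0.0348), with groups that overlap. Cox7c, a small complex IV subunit, rose by 0.38 and Ndufaf8, a complex I assembly factor, by 0.36, and Cox7a2l fell by 0.30. These calls were not stable, since each was kept in only 2 or 3 of the 9 fits that left out 1 library. The count of calls ranged from 0 without flox/+ replicate 2 to 5 without flox/flox replicate 5. Immune marker sums spanned 74.027 to 1660.3 CPM in flox/flox crypts and 106.03 to 371.12 CPM in flox/+. Without the 2 flox/flox libraries where they were highest, 12 genes rose and 0 fell, where 5.33% of all genes rose and 5.40% fell. With Y-linked transcripts as a covariate 16 rose and 0 fell, against 8.26% and 8.94% of all genes. The same crypts had a higher share of counts from mitochondrial genes, 13.7 to 25.2% against 6.24 to 12.4%, and 12 of 13 subunits encoded in the mitochondrial genome rose (background 8.63%), with a median of 1.39. The part of RNA quality, of immune cells and of sex in these values was not tested.

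In Rosa26 villi the changes went both ways: 11 of 87 genes rose (background 15.0%) and 9 fell (background 18.2%), and the median was -0.00 against -0.01. The number of calls was 13 without flox/flox replicate 3, and 8 rose and 2 fell with Y-linked transcripts as a covariate (9.72% and 12.1% of all genes in that fit). Complex IV was the role with most rises, 6 of 11, with a median of 0.31. Its subunit Cox7c went from 211, 186, 194, 199 and 166 CPM in flox/+ villi to 307, 349.7, 301, 256 and 264 CPM in flox/flox (0.57 ± 0.11, edgeR adjusted p = 0.00223), with no overlap. Uqcrc1 went from 1048, 944, 730.2, 1063 and 808 CPM to 1399, 1484, 1283, 1510 and 1138 CPM (0.52 ± 0.13, edgeR adjusted p = 0.00908), again without overlap. Cox5a rose by 0.35. Ndufa4, first assigned to complex I and now counted with complex IV, rose by 0.36. Of the fixed main subunits, no other passed the test in these villi.

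Assembly factors of complex I rose and fell in the same villi. Ndufaf4 rose from 12.9, 7.43, 11.7, 9.3 and 6.35 CPM to 18.6, 19.3, 17.6, 13.4 and 14.7 CPM (0.76 ± 0.20, edgeR adjusted p = 0.0129). All 5 flox/flox libraries lay above all 5 flox/+ ones. Ndufaf5, an assembly factor that modifies a core subunit, named after its values were seen, rose from 4.73, 3.38, 4.62, 3.39 and 3.4 CPM to 7.95, 10.2, 7.62, 7.21 and 7.33 CPM (0.99 ± 0.17, edgeR adjusted p = 0.00152). Ndufaf3 fell from 16.2, 16.7, 14.8, 17.9 and 20.2 CPM to 9.62, 10, 9.63, 11.8 and 12.4 CPM (-0.73 ± 0.12, edgeR adjusted p = 0.00127). The overlap of Ndufaf3 with Impdh2 limits what this value says. Cox7a1 went to 21.2, 18, 18.2, 20.1 and 31.2 CPM in flox/flox from the flox/+ values above (-1.06 ± 0.19, edgeR adjusted p = 0.00163). Atp5s fell by 0.76 (edgeR adjusted p = 0.00570). Sdhc, a membrane anchor of complex II, went from 405, 353, 330.3, 371 and 359 CPM to 303, 335, 287, 302 and 281 CPM (-0.32 ± 0.09, edgeR adjusted p = 0.0155). Of its flox/flox libraries, 1 lay inside the flox/+ range. Enterocyte marker sums overlapped, 55226 to 76758 CPM in flox/+ and 51138 to 82899 CPM in flox/flox. The difference between the villus and the crypt effect passed the test for 0 of 88 genes (background 3.09% higher and 1.62% lower). By edgeR 6 had p under 0.05 before adjustment, and DESeq2 called 2.

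In the Vil1 mice the crypts again showed few changes at 3 months: 3 of 87 genes rose (background 11.6%) and 5 fell (background 17.7%), with a median of -0.02 against 0.01. Ndufs5 (0.47, edgeR adjusted p = 0.0481), Ndufa4 (0.44, edgeR adjusted p = 0.0469) and Ndufaf4 (0.47) rose. Ndufaf4 was at 28.6, 23.9, 35.7 and 32.9 CPM in flox/+ crypts and at 43.7, 40.3 and 41.1 CPM in flox/flox (SE 0.13, edgeR adjusted p = 0.0301), without overlap. The falls included Cox7a1 (-1.80 ± 0.41, edgeR adjusted p = 0.0134), Ndufs4 (-0.41) and Ndufv3 (-0.43). Sdhc was at 140.2, 112, 170.2 and 176 CPM in flox/+ and 99.3, 98.8 and 104 CPM in flox/flox (-0.57 ± 0.15, edgeR adjusted p = 0.0248). Sdhc values did not overlap. The count of 8 calls depended on single libraries of both genotypes. It was 0 without flox/flox replicate 1 and 18 without flox/+ replicate 2. Enterocyte marker sums were lower in these crypts, at 709.5 to 1945.7 CPM against 1810.5 to 4417.1 CPM. Mitochondrial reads were higher, at 30.4 to 40.3% against 17.5 to 30.8%; their part in the result was not tested.

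Vil1 villi gave a broader fall. There 40 of 87 genes were lower in flox/flox mice (background 21.6%) and 3 higher (background 20.9%), and the median was -0.37 against 0.05 over all genes. By role the falls were 12 of 16 ATP synthase subunits (median -0.48), 15 of 29 accessory subunits (-0.47) and 3 of 7 core subunits (-0.18) of complex I, 3 of 4 subunits of complex II (-0.57), 3 of 8 of complex III (-0.28) and 1 of 11 of complex IV (-0.09). Complex I assembly factors had 0 falls and 2 rises among 8. Without flox/+ replicate 1 the number of calls was 26. The sum of enterocyte markers overlapped between the genotypes (34532 to 60234 CPM against 39759 to 50389 CPM). All 6 goblet cell markers and 5 of 6 Paneth cell markers fell. Immune marker sums were 46.391 to 193.12 CPM against 243.01 to 418.09 CPM. The part of these cells was not tested.

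Atp5c1 and Atp5o were among the ATP synthase genes that fell. Atp5c1, the rotating central stalk, went from 460.0, 340.0, 326 and 392 CPM in flox/+ villi to 168, 205, 213, 210.4, 237 and 212 CPM in flox/flox (-0.89 ± 0.13, edgeR adjusted p = 0.00014). Atp5o, the peripheral stalk subunit known as OSCP, went from 171, 134, 129 and 168 CPM to 86, 87.9, 85, 85, 88.9 and 67.5 CPM (-0.87 ± 0.12, edgeR adjusted p = 8.37e-05). Neither gene's groups overlapped, whereas the catalytic-head subunits Atp5a1 (-0.28) and Atp5b (-0.34) did not pass the test. In complex II, Sdhb went from 265, 208, 207 and 240.1 CPM to 137, 143, 158, 137, 167 and 130.5 CPM (-0.68 ± 0.12, edgeR adjusted p = 0.000458). Sdhc went from 302, 224, 244 and 263 CPM to 154, 135, 169.5, 129, 193 and 137 CPM (-0.77 ± 0.13, edgeR adjusted p = 0.000548). The catalytic flavoprotein Sdha had a value of -0.12 that did not pass.

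Complex I and complex IV differed in the same villi. Ndufa5, an accessory subunit, went from 46, 40.9, 38 and 48.9 CPM to 28.7, 27.5, 35.3, 26.1, 23.4 and 17.7 CPM (-0.73 ± 0.16, edgeR adjusted p = 0.00304). Ndufv1 fell by 0.39, while Ndufs1 (0.09) did not pass. Cox4i1 (0.12) and Cox5a (-0.12) did not pass either. The isoform Cox7a1 went to 17.9, 11.5, 20.2, 11.8, 17.7 and 11.9 CPM from flox/+ values of 32.4 to 56.4 CPM (-1.50 ± 0.19, edgeR adjusted p = 5.43e-05). Against this direction, Ndufaf4 rose from 13.4, 12.4, 15 and 10.9 CPM to 20.5, 29.8, 25.9, 28.7, 22.6 and 28.1 CPM (0.99 ± 0.15, edgeR adjusted p = 0.000195). Ndufaf5 rose by 0.92 ± 0.22 (edgeR adjusted p = 0.00460). For both the highest flox/+ library lay below the lowest flox/flox library.

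The difference between the villus and the crypt effect of the deletion was tested directly in the Vil1 mice, with the mouse as a block. It passed for 4 of 88 genes, all more negative in villi (background 4.89% lower and 7.83% higher), with a median of -0.23 against 0.10 over all genes. The share of 4.55% is near that background. The 4 calls are therefore given as single genes. These were 3 ATP synthase genes, Atp5g3 (-0.72), Atp5o (-0.68) and Atp5l (-0.68), and Cox6a2, the heart and muscle isoform of a complex IV subunit (-3.10). Atp5g3 was at 181, 149, 210.3 and 232 CPM in flox/+ and 235, 229 and 241 CPM in flox/flox crypts. In villi it was at 616, 493, 466 and 589 CPM in flox/+ and 388, 392, 478, 430.5, 368 and 299 CPM in flox/flox. Cox6a2 was near the limit of measurement, with 1.58 CPM at most. The number of calls ranged from 0 to 17 when 1 library was left out.

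**Figure D3:**
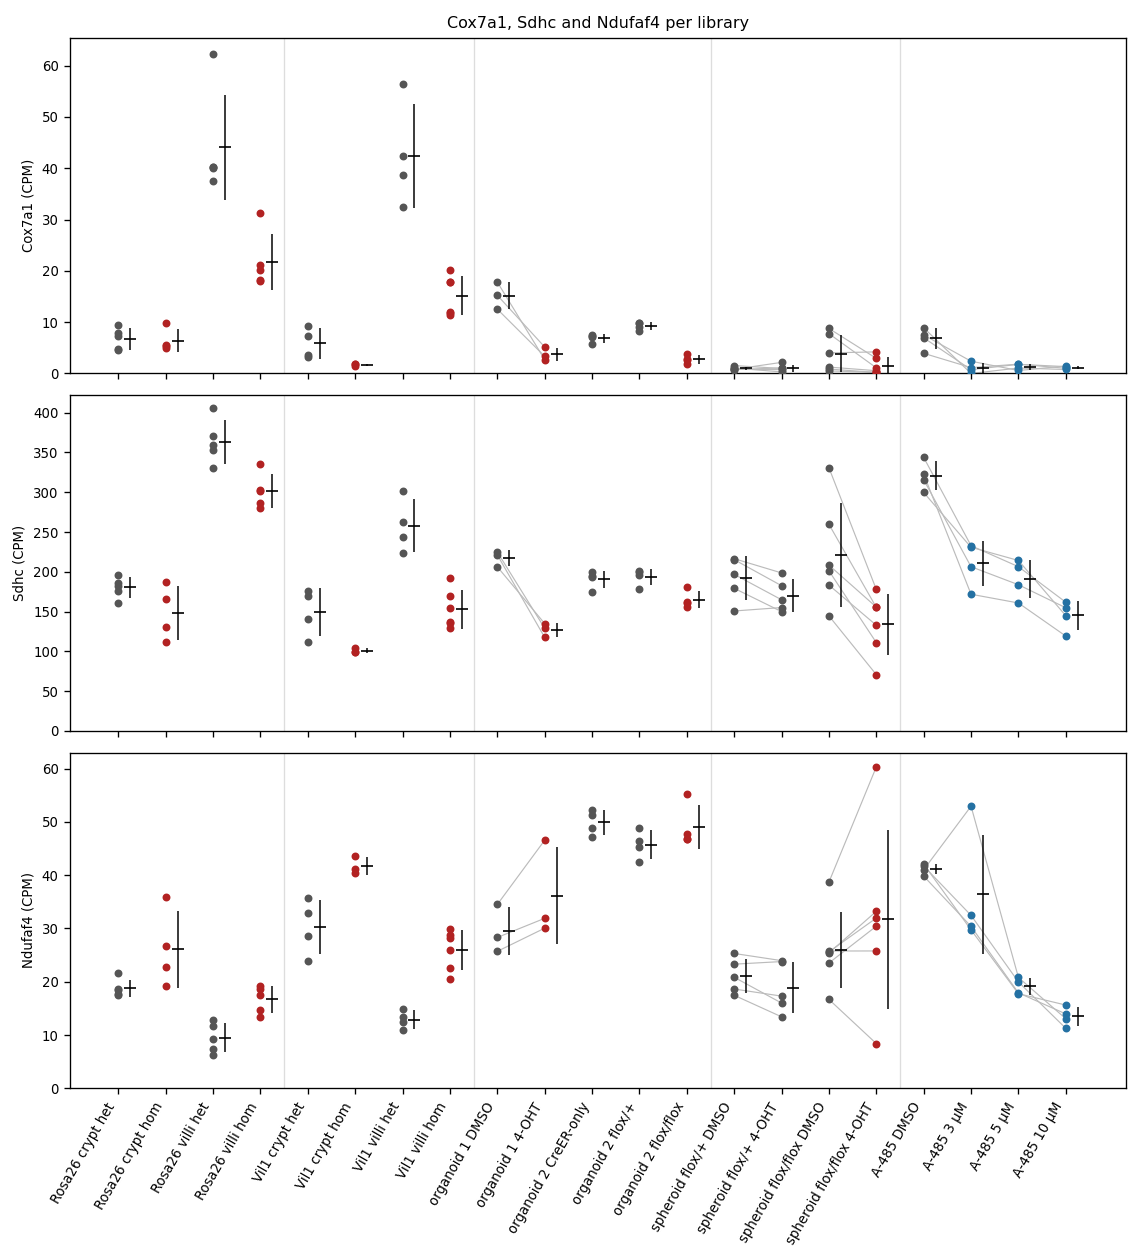
CPM of Cox7a1, Sdhc and Ndufaf4 in each library (points; vertical axis in CPM), by group, with mean and SD in black; red marks groups with both Eif4g2 copies deleted, blue marks A-485, and het and hom stand for flox/+ and flox/flox. Cox7a1 and Sdhc are lower and Ndufaf4 higher in flox/flox than in flox/+ villi of both mouse sets, and all 3 are lower at 10 µM A-485 than with DMSO.

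In the first organoid set, where each flox/flox line was its own control, 41 of 88 genes were lower after 4-OHT (background 17.2%) and 1 was higher (background 18.2%), with a median of -0.31 against 0.03. The fit without the line as a block is given here; with the block 55 fell and 2 rose, against 21.1% and 22.2% of all genes in that fit. Complex II fell as a whole (4 of 4, median -0.52), as did 18 of 29 accessory subunits of complex I (-0.40). Falls were fewer for the ATP synthase (6 of 16, -0.29) and complex IV (2 of 11, -0.17). Sdhc went from 221, 206 and 225 CPM in DMSO lines 1 to 3 to 118, 135 and 129 CPM after 4-OHT (-0.77 ± 0.08, edgeR adjusted p = 0.000894). Ndufv3, a subunit of the NADH-binding module, went from 63.3, 64.7 and 64.3 CPM to 35.9, 41.8 and 37.9 CPM (-0.74 ± 0.08, edgeR adjusted p = 0.00111). Cox7a1 went from 12.5, 15.2 and 17.8 CPM to 3.34, 5.16 and 2.7 CPM (-2.03 ± 0.26, edgeR adjusted p = 0.00166). All 3 genes were lower in each of the 3 lines.

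Of the fixed main subunits, Ndufv1 (-0.46), Sdha (-0.36), Sdhb (-0.57) and Uqcrfs1 (-0.31) fell in this set and the other 7 did not pass. The single rise was Cox6b2, the testis isoform of a complex IV subunit, from 2.91, 2.9 and 0.487 CPM to 13.5, 12.2 and 4.75 CPM (2.25 ± 0.63, edgeR adjusted p = 0.0290), a call kept in 2 of the 6 fits that left out 1 library. Ndufa4l2, a paralog of Ndufa4, was near the limit of measurement, at 0.563, 1.11 and 0.709 CPM with DMSO and 0.0607, 0.0337 and 0 CPM with 4-OHT. It is 1 of the 41 lower genes. Without 4-OHT replicate 1 the number of calls dropped to 17, and without 4-OHT replicate 3 it was 56. Leaving out DMSO replicate 1, 2 or 3 gave 21, 19 or 23. The enterocyte marker sum was 11064 to 15145 CPM with DMSO and 4967.7 to 7406.8 CPM with 4-OHT, and its part in these falls was not tested.

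The second organoid set separates deletion from the inducer, since all 3 genotypes received 4-OHT. Against flox/+ lines, 49 of 87 genes were lower in flox/flox lines (background 24.3%) and 4 higher (background 22.6%), with a median of -0.25 against -0.01. Against CreER-only lines 34 were lower (background 23.5%) and 6 higher (background 21.9%), with a median of -0.13 against -0.00. These comparisons share the flox/flox libraries. Between flox/+ and CreER-only lines, 0 of 87 genes passed (background 0.0492% higher and 0.0633% lower). The median was 0.09 against -0.00 over all genes, and 73 of the 87 values were positive. By edgeR 24 had an unadjusted p under 0.05, of which 0 were lower in flox/+, and DESeq2 called 3.

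Accessory subunits of complex I had the most falls of any role, 22 of 29 against flox/+ (median -0.38), followed by the ATP synthase with 10 of 16 (-0.35), complex IV with 5 of 11 (-0.18) and complex III with 4 of 8. In addition 3 of 7 core subunits of complex I and 1 of 4 subunits of complex II fell. Ndufa5 was at 37.8, 35.1, 37.3 and 36.8 CPM in CreER-only lines, at 42.8, 36.8, 39.1 and 34.1 CPM in flox/+ and at 26.9, 24.7, 22 and 23 CPM in flox/flox. Against flox/+ it fell by 0.66 ± 0.08 (edgeR adjusted p = 1.53e-05). Atp5k, a small membrane subunit of the ATP synthase, was at 29, 27.3, 23 and 22.9 CPM, 27.3, 21.9, 29.7 and 23.3 CPM, and 16.1, 15.4, 17.3 and 15.4 CPM in the same order (-0.67 ± 0.11, edgeR adjusted p = 0.000181). Cox7a1 was at 7.02, 5.65, 7.4 and 7.35 CPM, 9.9, 9.04, 8.2 and 9.78 CPM, and 2.67, 3.84, 1.78 and 2.75 CPM (-1.74 ± 0.19, edgeR adjusted p = 4.70e-06). For these 3 genes every flox/flox line lay below every line of the other genotypes.

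Uqcrfs1 and Uqcrc1 of complex III and Atp5a1 and Atp5b of the ATP synthase rose in the same lines. Uqcrfs1 was at 191, 201, 200.4 and 179.9 CPM in CreER-only, 195, 197, 192 and 192 CPM in flox/+ and 220.1, 221, 242 and 223 CPM in flox/flox (0.22 ± 0.05 against flox/+, edgeR adjusted p = 0.00235). Uqcrc1 was at 333, 321, 285 and 304 CPM, 329, 330.3, 319.9 and 318 CPM, and 363, 361, 400.5 and 382 CPM (0.22, edgeR adjusted p = 0.00616). Atp5a1 rose by 0.19 and Atp5b by 0.14, the latter in 4 of 8 fits that left out 1 library. Against flox/+, Ndufa12 had the value -1.27 ± 0.41 (edgeR adjusted p = 0.0271), but its flox/+ lines ran from 24.6 to 94.7 CPM and overlapped the flox/flox lines, and against CreER-only the value was -0.10 (edgeR adjusted p = 0.872). Stem cell and Paneth cell markers were lower in the flox/flox lines (2803.8 to 4036.9 against 7743.6 to 10110 CPM for 8 stem cell genes). Enterocyte sums overlapped, at 4188.9 to 7452.4 against 4433.7 to 9051.4 CPM. The part of these cell types was not tested.

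Gene length, as deposited beside the counts, also went with the fold changes in some comparisons. Members over 2000 bases by that length include small subunits such as Atp5l (6443 bases). Whether the transcripts present have these lengths was not tested. Against flox/+ in the second organoid set, genes of at most 800 bases that are not members had a median of -0.43 and those over 2000 bases 0.05, while members over 2000 bases had a median of -0.17. The corresponding medians were -0.44, 0.00 and -0.34 in Vil1 villi, and -0.10, 0.06 and -0.31 in the first organoid set. Members of at most 800 bases had medians of -0.40, -0.29 and -0.27 in these 3 comparisons. They were thus below the long members in the second organoid set and not in Vil1 villi or the first organoid set. The part of length in the falls was not tested.

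In fetal spheroids with both copies floxed, 5 of 87 genes were lower after 4-OHT (background 10.0%) and 0 higher (background 9.01%), although 82 of 87 had a negative value and the median was -0.40 against -0.02. Of the 23 genes with an unadjusted p under 0.05, 22 were lower. With the line as a block, since DMSO and 4-OHT libraries came from the same lines, 57 fell and 1 rose, against 17.1% and 17.6% of all genes in that fit. Ndufb10, an accessory subunit of the membrane arm of complex I, was at 123, 83.5, 101, 96.7, 134 and 50.3 CPM with DMSO in lines 1 to 6 and 69.8, 39.9, 57.4, 37, 63.8 and 17.7 CPM with 4-OHT. It fell by 1.04 ± 0.30 (edgeR adjusted p = 0.0170). Sdhc was at 259.7, 183, 208, 201, 331 and 145 CPM and at 155, 133, 156, 111, 178 and 70.8 CPM (-0.73 ± 0.20, edgeR adjusted p = 0.0134). Atp5c1 was at 494, 374, 355, 377, 641 and 236 CPM and at 294, 238, 236, 244, 328 and 149 CPM (-0.73 ± 0.20, edgeR adjusted p = 0.0143). All 3 were lower in each of the 6 lines although the groups overlap. The other 2 called genes were Ndufv3 (-0.73, edgeR adjusted p = 0.0235) and Atp5s (-0.58, edgeR adjusted p = 0.00773).

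Without the 4 lines that held Paneth cell transcripts, 3 genes fell and 1 rose (10.7% and 7.01% of all genes). With the line as a block as well these were 48 and 1, against 15.8% and 13.9% of all genes. Ndufb10 (edgeR adjusted p = 0.0248) and Ndufv3 (edgeR adjusted p = 0.00545) stayed past the threshold without the block, and Atp5c1 (edgeR adjusted p = 0.0906), Sdhc (edgeR adjusted p = 0.0666) and Atp5s (edgeR adjusted p = 0.0724) did not. In the fit without the block the count of calls was 18 without DMSO replicate 6 and 14 without 4-OHT replicate 5. In flox/+ spheroids 0 of 87 genes were called after 4-OHT (background 0% in each direction, 0 at an unadjusted p under 0.05, and 0 by DESeq2). The number was also 0 without the 2 flox/+ lines that held Paneth transcripts (median -0.01). Eif4g2 itself, which has 1 floxed copy in these lines, was not called in that fit without the block (-0.81 ± 0.24, edgeR adjusted p = 0.9999). A fit that missed this change cannot show that the set was unchanged. The difference between the flox/flox and the flox/+ effect of 4-OHT passed for 0 of 87 (background 0.645% higher and 0.971% lower) without the block, where 4 had p under 0.05 before adjustment and DESeq2 called 0. It also passed for 0 without the 4 lines (median -0.46; 1.20% of all genes lower and 0.213% higher). With the block it passed for 36, all lower, where 10.1% of all genes were lower and 8.22% higher. With the block but without the 4 lines it passed for 26 lower and 1 higher, against 8.60% and 5.23% of all genes. In that test with the block Ndufb10 had -1.09 (edgeR adjusted p = 0.000521), Ndufv3 -0.90 (edgeR adjusted p = 0.00416), Atp5c1 -0.62 (edgeR adjusted p = 0.00461) and Sdhc -0.57 (edgeR adjusted p = 0.00841).

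Comparing genotypes after 4-OHT across different spheroid lines gave 0 of 87 calls (background 4.36% higher and 6.13% lower). By edgeR 3 had p under 0.05 before adjustment, and DESeq2 made 1 call. The median was -0.00, and -0.26 without the 4 lines, where 0 of 87 were called again (2.38% of all genes higher and 4.70% lower). With DMSO, before deletion, the median against flox/+ was 0.43, and 0.20 without the 4 lines. There 0 of 87 were called with and without these lines (background 0% in each direction); with all lines 15 had an unadjusted p under 0.05, and DESeq2 called 0. The sum over the 94 genes ranged from 8665.6 to 20329 CPM with DMSO and from 5896.4 to 15552 CPM with 4-OHT in flox/flox lines. The enterocyte sum ranged from 755.43 to 9516.6 and from 7.9079 to 6690.9 CPM.

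Across the 9 comparisons of lines or tissue that lost both copies with controls that kept at least 1, some of which share libraries, 24 of the 89 genes tested in any of them were lower in none and 1 was lower in 7. Sdhc was that gene, with values from -0.77 to -0.21. Cox7a1, Ndufv3, Atp5s and Cox7a2l were lower in 6 each, and Ndufa5, Ndufb3, Ndufb7, Ndufb10 and Atp5c1 in 5. In the other direction 70 genes were higher in none, and Ndufaf4 had the most rises, with 4, all in the mice. Of all genes tested, 6.13% to 24.3% were lower and 4.36% to 22.6% higher in each of these comparisons. How often genes outside the set were called across the 9 was not counted. Whether such numbers of calls are unusual for a gene is therefore not known. The values of Ndufaf4 in the organoid sets, 0.30 in the first and 0.10 and -0.02 in the second, did not pass. Cox7a2l was at 127, 110.4, 116, 112 and 105 CPM in Rosa26 flox/+ villi and 88.7, 105, 99.2, 90.5 and 95 CPM in flox/flox (-0.31, edgeR adjusted p = 0.0155). In organoids it was at 219, 202, 205 and 214 CPM in flox/+ and 166, 173, 181 and 163 CPM in flox/flox (-0.30, edgeR adjusted p = 0.000235).

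**Figure D4:**
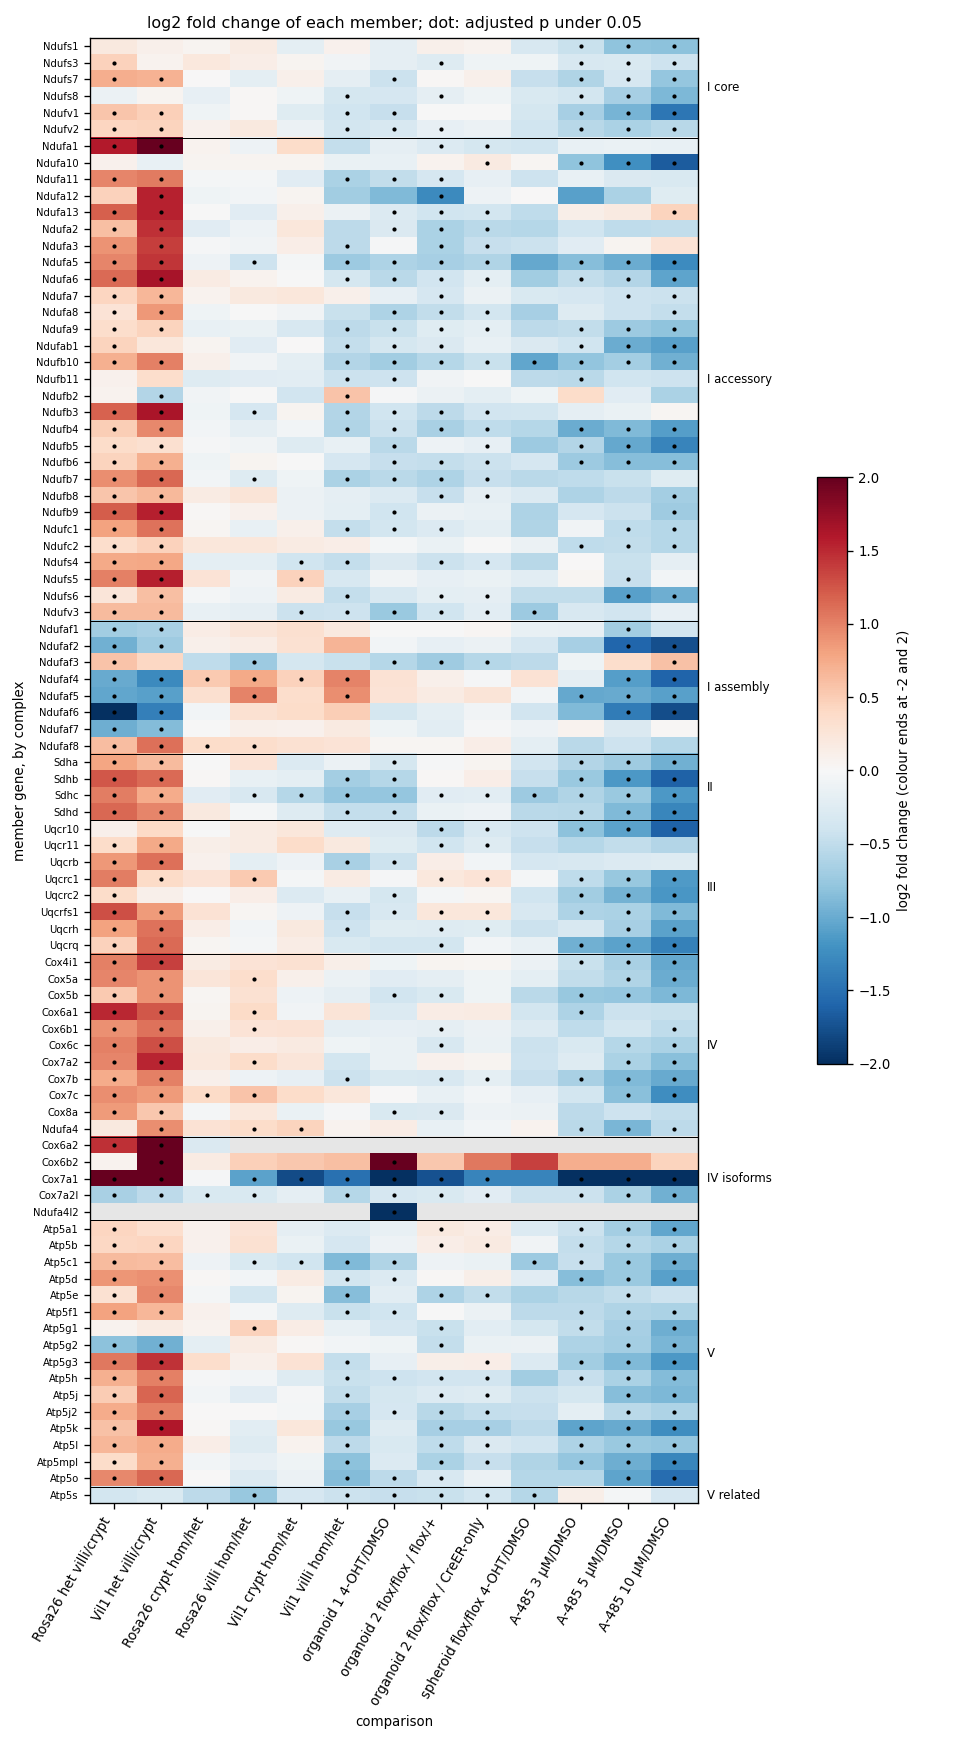
Log2 fold change of the tested genes but 1 (rows, ordered by role) in the comparisons of the study (columns), as colour from lower (blue) to higher (red); dots mark an edgeR adjusted p under 0.05, grey cells were not tested, and het and hom stand for flox/+ and flox/flox. The villus against crypt columns are mostly red outside the assembly factors, and the A-485 columns are blue for nearly all roles.

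Inhibition of p300 and CBP with A-485 lowered genes of every complex. Compared with DMSO, 46 of 87 genes were lower at 3 µM (background 8.42%), 62 at 5 µM (background 25.1%) and 63 at 10 µM (background 32.6%). Higher were 0, 0 and 2 (background 10.8%, 24.4% and 29.4%). The medians were -0.51, -0.65 and -0.86 against 0.00, -0.02 and -0.05 over all genes. The 3 comparisons share the DMSO libraries. The fits given here are without the line as a block unless stated, although the same lines received every dose. The sum over the 94 genes was 15550 to 16976 CPM with DMSO, 10455 to 12127 CPM at 3 µM, 8902.3 to 10994 CPM at 5 µM and 7522.1 to 9758.7 CPM at 10 µM. The DMSO libraries overlapped none of the treated groups. Tested directly, 14 genes were lower and 0 higher at 5 than at 3 µM (background 13.0% and 11.5%), and 13 lower and 1 higher at 10 than at 5 µM (background 12.4% and 6.44%; 30 lower and 2 higher with the line as a block, against 16.9% and 14.4% of all genes). Without the block, the 14 and 13 lower genes are 16.1% and 14.9% of the 87, near these backgrounds. With the block, the 30 of 87 at 10 against 5 µM lie above the 16.9% of all genes. Without the Eif4g2(+/+) line and without the block, the counts for these steps were 7 and 5, all lower, against 10.0% and 9.65% of all genes.

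At 10 µM all 7 core subunits of complex I, all 4 subunits of complex II (median -1.23), 6 of 8 of complex III (-1.10), 9 of 11 of complex IV (-0.84) and 15 of 16 of the ATP synthase (-0.94) were lower. Accessory subunits of complex I were lower less evenly, 16 of 29 with 1 higher (-0.56), and 4 of 8 assembly factors fell and 1 rose. The core of complex I and complex II had every gene called at 3 µM as well, and the ATP synthase 11 of 16 at 3 µM and 16 of 16 at 5 µM. All 11 fixed main subunits were lower at 5 and at 10 µM, with values at 10 µM from -0.63 (Atp5b) to -1.62 (Sdhb). At 3 µM Cox5a was the only one not called. The call of Cox5a at 5 µM was kept in 2 of the 8 fits that left out 1 library.

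Sdhb was at 175, 232, 191 and 195 CPM in DMSO lines 1 to 4, 90.8, 107, 119.5 and 154 CPM at 3 µM, 87.9, 95.5, 94.2 and 78.2 CPM at 5 µM and 57.9, 64.4, 66.5 and 68.4 CPM at 10 µM. The changes were -0.75 ± 0.14, -1.16 ± 0.14 and -1.62 ± 0.14 (edgeR adjusted p = 0.000931, 2.32e-06 and 1.72e-08). Ndufa10, an accessory subunit of complex I, was at 197, 209, 205 and 201 CPM, then 114, 129.5, 131 and 91.5 CPM, 78.4, 92, 98.2 and 79.5 CPM, and 62.4, 69.8, 67 and 57.3 CPM. It fell by 1.66 ± 0.12 at 10 µM (edgeR adjusted p = 1.64e-09), with both steps between doses called (edgeR adjusted p = 0.0130 and 0.0126). Uqcr10 was at 93.6, 78.8, 78.7 and 81.3 CPM, then 38.4, 51.8, 50.2 and 47.5 CPM, 38.1, 44.5, 39.8 and 35 CPM, and 30.3, 27.9, 25.1 and 24.9 CPM (-1.62 ± 0.12 at 10 µM, edgeR adjusted p = 3.73e-09). In all 3 genes every treated library lay below every DMSO library.

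Not all genes followed the dose in the same way. Atp5k was at 29.4, 28.7, 21 and 23.3 CPM with DMSO, 16.1, 13.1, 13.8 and 6.04 CPM at 3 µM, 15, 11.8, 12 and 12.2 CPM at 5 µM and 12.6, 12.5, 10.8 and 7.31 CPM at 10 µM. No difference between doses passed the test (0.05 and -0.23; edgeR adjusted p = 0.909 and 0.591). Ndufaf4 was at 39.8, 41.7, 42.1 and 41 CPM with DMSO and at 30.4, 32.5, 29.7 and 52.9 CPM at 3 µM (-0.18, edgeR adjusted p = 0.510). It was at 17.9, 20, 17.8 and 20.8 CPM at 5 µM (-1.11 ± 0.17, edgeR adjusted p = 4.21e-05) and 14, 11.3, 15.6 and 13.1 CPM at 10 µM (-1.61 ± 0.18, edgeR adjusted p = 3.31e-07). The largest step for Ndufaf4 was from 3 to 5 µM (-0.93, edgeR adjusted p = 0.000862). Of the 2 genes higher at 10 µM, Ndufaf3 was at 10.7, 14.9, 15.7 and 16 CPM with DMSO and 23.5, 23.6, 20.1 and 18.7 CPM at 10 µM (0.58 ± 0.19, edgeR adjusted p = 0.0117). This call was lost without the Eif4g2(+/+) line. Ndufa13 had a value of 0.44 that was kept in 1 of 8 fits leaving out a library. Cox7a1 was at 3.93, 6.95, 7.51 and 8.9 CPM with DMSO and 1, 1.34, 1.46 and 0.776 CPM at 10 µM, with changes of -2.65, -2.37 and -2.55 at the 3 doses.

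**Figure D5:**
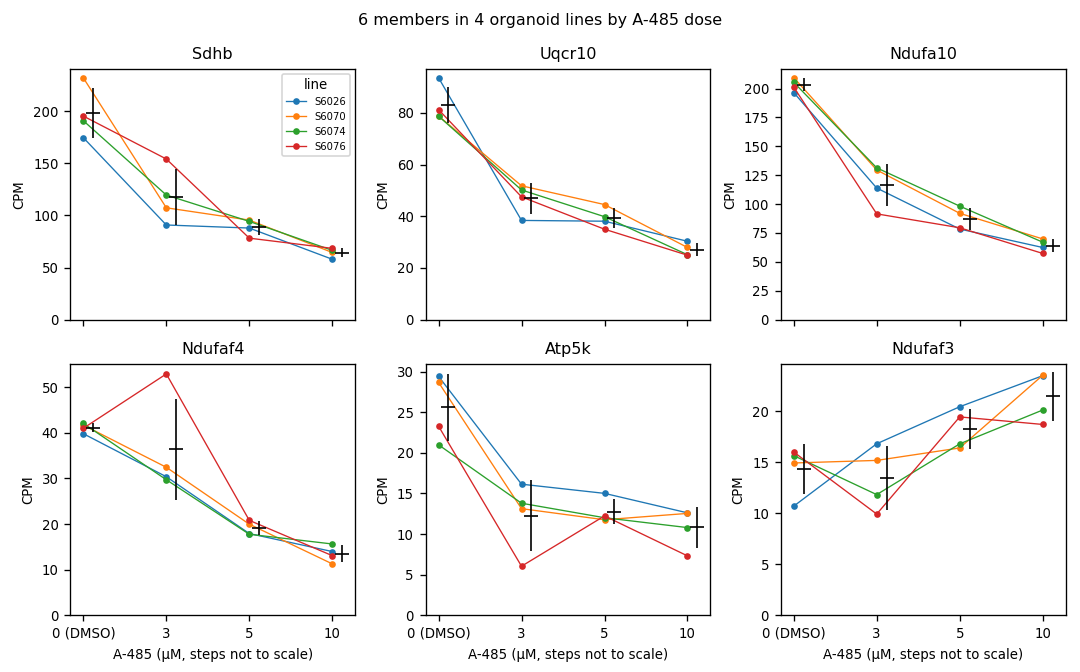
CPM of Sdhb, Uqcr10, Ndufa10, Ndufaf4, Atp5k and Ndufaf3 (1 panel a gene; vertical axis in CPM) against the A-485 dose in µM, with a coloured line for each of the 4 organoid lines and the mean and SD in black; doses are spaced evenly, not to scale. The means of Sdhb, Uqcr10 and Ndufa10 step down at each dose, that of Ndufaf4 mostly between 3 and 5 µM and that of Atp5k at 3 µM with little change after it, and Ndufaf3 is higher at 10 µM.

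Cell type markers moved strongly with A-485. The enterocyte sum was 5737.3 to 11555 CPM with DMSO, 2298.3 to 5688.8 CPM at 3 µM, 1855.3 to 4837.9 CPM at 5 µM and 144.71 to 522.81 CPM at 10 µM. The stem cell sum was 8491.9 to 9904.5 CPM with DMSO and 609.26 to 690.87 CPM at 10 µM, and the proliferation sum 1615 to 1688.1 CPM and 360.16 to 469 CPM. At 10 µM all markers of enterocytes, stem cells, Paneth cells, goblet cells and proliferation were lower. At that dose genes of at most 800 bases outside the set had a median of -1.37 against 0.12 for those over 2000 bases, with -0.91 for members over 2000 bases and -0.50 for those of at most 800. Their part in the falls of the oxidative phosphorylation genes was not tested. Without the Eif4g2(+/+) line, 23 genes rather than 46 were lower at 3 µM (4.20% of all genes).

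Fetal spheroids and adult organoids of flox/+ genotype, both given 4-OHT, were set side by side in 1 further comparison. In spheroids 29 of 87 genes were lower (background 22.8%) and 2 higher (background 25.1%), with a median of -0.28 against -0.01. The result depends on the 2 flox/+ spheroid lines with Paneth transcripts: without them 25 were lower and 17 higher (32.4% and 32.9% of all genes), and the median was -0.04. The library names of the 2 kinds carry numbers from separate ranges. The labels do not say what these ranges stand for, and what goes with them cannot be told apart from culture type. Uqcrq, a small complex III subunit, was at 56.1, 85.5, 78.6, 40.9 and 62.6 CPM in spheroids and 149, 156, 175 and 162 CPM in organoids (-1.19 ± 0.19, edgeR adjusted p = 0.000848). Ndufaf4 was at 13.4, 17.3, 16, 24 and 23.8 CPM against 42.4, 45.3, 46.4 and 48.8 CPM (-1.15 ± 0.18, edgeR adjusted p = 0.000721). Groups did not overlap for either gene. The 2 higher genes were complex IV paralogs, Cox7a2l (0.58, edgeR adjusted p = 0.00228) and Cox6b2, at 28.6, 15.7, 11.4, 5.58 and 1.68 CPM against 0.462, 1.27, 2.43 and 0.925 CPM (3.41 ± 0.81, edgeR adjusted p = 0.00710).

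Other genes of energy metabolism, listed by pathway, did not always move with the nuclear subunits. Subunits encoded in the mitochondrial genome (13 genes) had no calls between villi and crypts in either mouse set (background 35.7% higher and 40.2% lower in the Rosa26 mice, 32.0% and 34.5% in the Vil1 mice). At 3, 5 and 10 µM A-485, 6, 2 and 5 of them were lower (background 8.42%, 25.1% and 32.6%), with medians of -0.66, -0.41 and -0.53. The counts at 5 and 10 µM are near or below the background. Citric acid cycle genes (13), whose enzymes supply the electrons, were lower in 10, 12 and 13 cases at those doses against the same backgrounds, with medians of -0.44, -0.77 and -1.17. In the first organoid set 6 of them fell (background 17.2%), and in Vil1 villi 3, which is near the background of 21.6%. Between villi and crypts 8 rose and 3 fell in the Rosa26 mice and 9 rose and 3 fell in the Vil1 mice, against the villus backgrounds above. Glycolysis and lactate genes fell in 12 of 20 in the first organoid set (background 17.2%) and in 14 of 19 at 10 µM A-485 (background 32.6%), where 2 rose (background 29.4%). Assembly factors of complexes II to V (32 tested) were mixed. In Rosa26 villi against crypts 12 were higher and 9 lower (background 35.7% and 40.2%), and in flox/flox against flox/+ organoids 4 were higher and 13 lower (background 22.6% and 24.3%).

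Regulators of mitochondrial biogenesis (15 genes) were lower in 3, 9 and 12 cases at 3, 5 and 10 µM A-485 (background 8.42%, 25.1% and 32.6%), with 0 higher and medians of -0.31, -0.50 and -1.18. Among them Ppargc1b, a coactivator of oestrogen-related receptors, fell by 4.07 at 10 µM. Its relative Ppargc1a, a main activator of mitochondrial gene programmes, fell by 3.54 in Vil1 crypts, 2.30 in Vil1 villi and 0.73 in Rosa26 villi after deletion of Eif4g2. Between villi and crypts of Rosa26 flox/+ mice Ppargc1a was higher by 2.47 and Esrra, an oestrogen-related receptor, by 2.17, whereas Myc, a driver of growth in crypts, was lower by 5.61, and by 4.49 in the Vil1 mice. These are single genes. The other regulators in these comparisons, and Ppargc1a after deletion in Rosa26 crypts, organoids and spheroids, are not given here. No result for the list after deletion follows from them, and their part in the changes of the subunits was not tested.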

How the data were processed

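Polyadenylated RNA of mouse crypts, villi, organoids and spheroids was sequenced with strand-marking libraries, per the labels' protocols. The 4 tables that the authors deposited hold unnormalized counts for each gene, beside gene lengths. HISAT2 2.0.5 and GRCm38/mm10 are named in the submitters' processing notes, and whether counting used strand is not given in the sources used here. Of 92 libraries in 21 groups, 0 per-sample columns lacked a matching label; organoids in WENR medium were not used here. No 2 libraries of a group were identical.

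The deposited counts were filtered (filterByExpr by group), scaled by TMM and tested in edgeR 4.0.16 (R 4.3.3) with robust quasi-likelihood fits, within each experiment, with Benjamini-Hochberg adjustment over all genes tested; SE is the fold change divided by the square root of F. CPM values use TMM scaling over all groups of an experiment. A list is described by its count of calls and its median. The members, lists and tests were chosen with earlier results of these data known. Named genes were the 3 called members that rose most and the 3 that fell most in a comparison (mean log2 CPM 3 or more), 11 main subunits, 10 isoforms or paralogs, and the 5 most often called after loss of both copies; others are marked in the text. Values of 1 main subunit are not reported here by name, although it is in the counts. The test was checked on simulated counts with changes larger than most reported here and no effect of line or mouse. That check does not cover smaller changes or such effects.

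Alternatives were DESeq2 1.42.0 (Wald test, or its size factors in edgeR), no low-count filter, the replicate, line or mouse as a block, only the 2 groups compared, and each library left out; added after seeing the data were fits without the 4 Paneth-rich spheroid lines, without the Eif4g2(+/+) line, without 2 immune-rich crypt libraries, without mitochondrial genes and with a Y-linked covariate. Replicate numbers mark the same line in the first organoid set (correlations of deviations 0.318 to 0.501), the spheroids (0.385 to 0.857) and A-485 (0.0556 to 0.352), and the same mouse for villi and crypts; elsewhere they pair nothing. A further alternative for the genotype comparisons of the Rosa26 mice used the number series of the mouse as a covariate. Promoter windows came from RefSeq (GRCm38.p6).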

Additional observations from a re-analysis of the deposited data

Results flagged for a closer look

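Chance alone sets about 1 library in 20 groups apart by the measure used here, and 4 were found among 144 groups and measures. The summed level of complex I accessory subunits was 1878.5 CPM in flox/+ replicate 3 of the second organoid set, against 1785.2 to 1786.9 CPM in the others, and 657.33 CPM in flox/flox spheroid replicate 6 with 4-OHT, against 1366.5 to 1781.7 CPM. For complex IV, DMSO replicate 3 of the A-485 experiment had 2026.7 CPM against 2181.2 to 2189.9 CPM, and flox/flox replicate 3 of the second organoid set 1848.2 CPM against 1763.8 to 1770.1 CPM. In the Vil1 mice the effect of the deletion differed between villi and crypts, by an interaction test (edgeR), for Atp5g3 (-0.718, adjusted p = 0.0391), Atp5o (-0.683, adjusted p = 0.0342), Atp5l (-0.684, adjusted p = 0.0478) and Cox6a2 (-3.097, adjusted p = 0.0449). These 4 are 4.55% of the 88 tested, near the 4.89% of all genes that were lower. The count ranged from 0 to 17 with 1 library left out, and Cox6a2 was near the limit of measurement.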

How the results depend on the processing

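For 304 named results there were 4686 alternative values. Of these, 4301 stayed on the same side of the threshold, 312 lost a call and 73 gained 1. No direction reversed where the main or the alternative fit made a call. Changes of sign in results called in neither fit were not counted. Of 202 named calls, 153 held without each single library and 153 under each other alternative. The 2 sets of organoids and the villus against crypt and A-485 against DMSO comparisons kept their main direction in every fit run. Counts of called genes that moved by over 1.5 times follow. In Rosa26 crypts (4) they were 12 without the immune-rich libraries, 12 with DESeq2's Wald test, 2 without the filter, 0 with the replicate block and 16 with the Y-linked covariate, and in Rosa26 villi (20) 11 without the filter and 10 with that covariate. For flox/+ against CreER-only organoids (0) they were 3 with the Wald test and 2 without the filter. For 4-OHT in flox/flox spheroids (5) they were 9 with DESeq2's size factors, 16 with the Wald test, 3 with only the 2 groups, 58 with the replicate block and 49 with the block and without the Paneth-rich lines; the difference from flox/+ (0) gave 36 and 27 with the block, and genotypes after 4-OHT (0) gave 1 with the Wald test. For A-485 at 3 µM (46) it was 23 without the Eif4g2(+/+) line; 5 against 3 µM (14) gave 7 without that line, 7 without the filter and 4 with only the 2 groups, and 10 against 5 µM (14) gave 5, 9 without the filter and 32 with the replicate block. The villus minus crypt effect gave 2 with the Wald test and 2 without the replicate block in Rosa26 mice (0), and 13 and 9 in Vil1 mice (4). The replicate block changed no other count by over 1.5 times; the numbers pair lines only where stated. The causes of these differences were not tested.

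With 1 library left out, counts ranged from 0 to 5 in Rosa26 crypts, 13 to 22 in Rosa26 villi, 0 to 18 in Vil1 crypts, 26 to 44 in Vil1 villi, 17 to 56 in the first organoid set, and 47 to 54, 35 to 43 and 0 to 1 in the second (flox/flox against flox/+ and CreER-only, flox/+ against CreER-only). They ranged from 4 to 18 for 4-OHT in flox/flox spheroids, 0 to 0 in flox/+ spheroids and 0 to 1 between genotypes after 4-OHT. For A-485 they were 32 to 48, 53 to 60 and 62 to 66 by dose, 6 to 17 for 5 against 3 µM and 4 to 15 for 10 against 5 µM. Villi against crypts gave 68 to 75 (Rosa26) and 64 to 77 (Vil1), the villus minus crypt effects 0 to 2 and 0 to 17, and spheroids against organoids 22 to 32. A-485 libraries, at 8652040 to 16436145 counts, measure genes at a few CPM least precisely.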
